A study of Arabidopsis thaliana with 6 samples.

Results

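The group IX ethylene response factors examined here are 9 transcription factor genes of Arabidopsis thaliana, chosen by locus as ERF1, ERF1A, ERF2, ERF5, ERF6, ERF13, ERF104, ERF105 and ORA59. All 9 were among the 30457 features listed in each library. The genes were proposed with their wild-type and sgd levels in these same libraries already known, so the difference between genotypes is a description for them. No p-value is given for any of the 9, and calls on them are counted only beside the share of all features called. RNA of ovules at the FG1 to FG3 stages, the first stages of embryo sac development, was sequenced as poly(A) RNA in 6 libraries, 3 from wild type and 3 from the sgd mutant. Both genotypes carried the qrt1 background, in which pollen stays in tetrads, and plants grew in a greenhouse at 22 °C with 16 h of light and 8 h of dark. The locus mutated in sgd and its allele are not given in the sources used here, and the labels do not say whether the libraries of a genotype came from separate plants, so spreads and p-values cover only the variation between these libraries, which may be technical. About 6000 ovules were collected, with no statement of how they were divided.

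Group IX is a branch of the AP2/ERF family, plant transcription factors that bind DNA through a single AP2/ERF domain and, in this branch, mostly activate genes that carry a GCC box. Ethylene is sensed by receptors that keep the kinase CTR1 active until ethylene binds them. Relief of EIN2 from CTR1 then lets the factors EIN3 and EIL1 accumulate and switch on ERF1. Several group IX genes are also induced within minutes by wounding, touch, cold, osmotic stress or microbial molecules, and ERF6 and ERF104 proteins are substrates of the MAP kinases MPK3 or MPK6. The branch is usually divided into subgroups IXa (ERF1A, ERF2 and ERF13), IXb (ERF5, ERF6, ERF104 and ERF105) and IXc (ERF1 and ORA59).

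Each of the 9 genes is annotated as a single exon, a structure shared by 18.9% of 27444 protein-coding nuclear genes in the RefSeq annotation of TAIR10.1. ERF6 and ERF1A lie next to each other on chromosome 4 with 5041 bases and no other annotated gene between them, on opposite strands. ERF104 lies 832 bases from DEWAX, another group IX gene, on the same strand of chromosome 5, and ERF1 lies next to ERF98, also of group IX, on chromosome 3. For 8 of the 9 genes no stretch of 50 bases of the transcript occurred in the transcripts of any other gene, on either strand. ERF105 is the exception, since its whole transcript lies opposite the last exon of AT5G51180, in both annotated transcripts of that gene. The sources used here do not say whether reads were assigned by strand. In libraries 1 to 3 AT5G51180 was listed at 4.95, 8.28 and 9.18 FPKM for wild type, against 8.24, 9.53 and 9.94 FPKM for sgd. Reads of ERF105 and of this antisense partner cannot be told apart without strand. The listed level of the partner reached 9.94 FPKM at most, while that of ERF105 ran from 0 to 70.3 FPKM.

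The 250 bases before the annotated start are shown for 4 genes. ERF104 is shown because it was the highest of the 9 in sgd, ERF13 because it was the highest in wild type, and ERF1A and ERF2 because they share a stretch of sequence. The letters are those of RefSeq TAIR10.1, read 5′ to 3′ on the strand of the gene, and capitals mark matches on either strand to one of 6 short motifs named in the next paragraph.
ERF104, chr5:24767733-24767982, minus strand: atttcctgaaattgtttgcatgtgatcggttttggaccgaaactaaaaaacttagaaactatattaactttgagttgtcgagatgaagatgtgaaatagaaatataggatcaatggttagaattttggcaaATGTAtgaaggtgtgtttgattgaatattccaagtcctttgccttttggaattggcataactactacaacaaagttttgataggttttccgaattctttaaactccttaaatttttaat
ERF13, chr2:18494965-18495214, plus strand: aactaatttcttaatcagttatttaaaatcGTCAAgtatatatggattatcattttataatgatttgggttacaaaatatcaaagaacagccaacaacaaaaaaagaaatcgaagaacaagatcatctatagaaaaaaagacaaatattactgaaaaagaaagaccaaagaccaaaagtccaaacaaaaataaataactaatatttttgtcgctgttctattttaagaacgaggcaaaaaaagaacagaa
ERF1A, chr4:9758953-9759202, plus strand: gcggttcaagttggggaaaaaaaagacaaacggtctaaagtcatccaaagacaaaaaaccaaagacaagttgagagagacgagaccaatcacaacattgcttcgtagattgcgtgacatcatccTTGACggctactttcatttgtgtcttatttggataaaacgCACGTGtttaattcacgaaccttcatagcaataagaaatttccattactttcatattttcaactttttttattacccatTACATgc
ERF2, chr5:19172957-19173206, minus strand: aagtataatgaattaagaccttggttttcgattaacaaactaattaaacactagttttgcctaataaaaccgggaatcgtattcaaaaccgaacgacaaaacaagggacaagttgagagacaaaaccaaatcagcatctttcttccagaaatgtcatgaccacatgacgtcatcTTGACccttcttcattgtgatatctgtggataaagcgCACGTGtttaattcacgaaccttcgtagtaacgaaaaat

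The motifs searched in both orientations were the GCC box bound by ERF proteins (GCCGCC), the core of the W box bound by WRKY proteins (TTGAC), the rapid stress response element bound by CAMTA proteins (CGCGTT), the G box bound by bZIP and bHLH proteins (CACGTG), the core of the drought-responsive element bound by DREB proteins (CCGAC) and a core of EIN3 sites (ATGTA). No match overlapped another in the 4 windows shown. A G box was present in 3 of the 9 windows (ERF1A, ERF2 and ORA59) and in 6.49% of 27443 protein-coding promoters of the same length. The W box core was present in 5 of the 9 (ERF1A, ERF2, ERF5, ERF13 and ERF105) and in 44.9% of all promoters, and the EIN3 core in 3 of the 9 (ERF1, ERF1A and ERF104) and in 52.0%. The drought-responsive core was found in ERF5 and ORA59 (12.0% of all promoters), the GCC box in ORA59 alone of the 9 (1.87%), and the rapid stress response element in none of the 9 (2.59%). The window of ERF6 held none of the 6. A match is a description of these letters and was not tested as a site.

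ERF1A on chromosome 4 and ERF2 on chromosome 5 share a run of 26 identical bases around the G box, shown here because it is the longest run shared by any of the 36 pairs of windows.
Shared run of ERF1A and ERF2: cgCACGTGtttaattcacgaaccttc
It lies at -88 to -63 from the start of ERF1A and at -41 to -16 from the start of ERF2. The next longest shared run among the pairs was 13 bases (ERF1A and ERF13), and the median was 8.

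Values are FPKM, which divide the fragments of a gene by its transcript length and by the mapped fragments of the library, and so can be compared between genes. Depth estimated from the steps of low FPKM was 24100000 to 40100000 fragments in wild-type libraries and sgd library 1, and 14200000 and 13200000 in sgd libraries 2 and 3. The fragment length fitted with it was 190 to 260 bases in wild-type libraries and sgd library 1. It was 350 and 360 bases in sgd libraries 2 and 3. Library 1 of each genotype was unlike the others: AT3G06355, a noncoding RNA locus, reached 44051 and 33265 FPKM in these libraries of wild type and sgd and at most 2563 FPKM elsewhere, and the summed FPKM was 528715 and 561173 in these libraries against 750410 to 796250 in the others. Over features, the level in sgd library 1 was at the median 0.662 times the mean of sgd libraries 2 and 3. All 8 ovule marker genes were above 1 FPKM in every wild-type library, and their summed level was 713 to 1417 FPKM in wild type and 470 to 885 FPKM in sgd. SPL, a regulator of sporocyte formation, was the exception in sgd, at 0 to 0.07 FPKM.

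**Figure D1:**
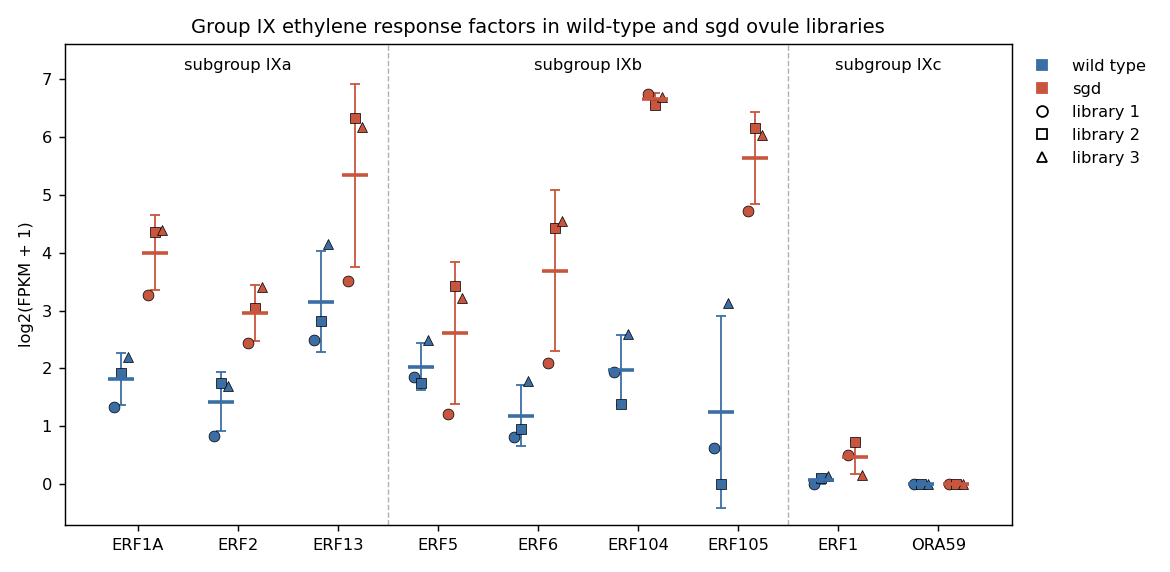
Level of each gene as log2(FPKM + 1) in the 6 libraries, with wild type in blue and sgd in red, symbols for libraries 1 to 3, a thick bar for the mean and a thin bar for the SD over 3 libraries. All 3 sgd points of ERF104 lie above all wild-type points and close together, those of ERF13 and ERF5 overlap the wild-type points, and ORA59 is at 0 throughout.

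In the sgd libraries 7 of the 9 genes had a higher mean FPKM by 2.01-fold (ERF5) to 31.6-fold (ERF104), ERF1 was near the detection limit in both genotypes and ORA59 was listed at 0 in all 6. The 9 genes together summed to 24.1 ± 15.9 FPKM in wild type and 252 ± 80.1 FPKM in sgd (SD, n = 3). The 7 genes that passed the filter, an average of 1 FPKM or more, had a median difference of 2.19 on the log2(FPKM + 1) scale, where the median over all 18100 features tested was 0.13. In the limma fit over these features 5 of the 7 were called higher in sgd (ERF1A, ERF2, ERF6, ERF104 and ERF105) and none lower, while 13.3% of all features were called higher and 4.47% lower. The sgd values lay above every wild-type value for the same 5 of the 7, and for 26.8% of the features tested. This was also so for ERF1, which was below the filter and so is outside that share. The sgd values lay below every wild-type value for none of the 7, nor for ERF1 or ORA59, and for 8.8% of the features tested. The genes were proposed from this same contrast, so nothing is read from these counts. With the replicate number as a block 6 were called (26.5% of all features), and without both replicate 1 libraries all 7 (32.2% of all features). Median-ratio scaling left the count at 5 (19.1% of all features), and without wild-type library 1 it was 3 (9% of all features). In whole ovules, more cells expressing a gene and more RNA per cell cannot be told apart.

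Subgroup IXa contains activators of GCC box genes, and its 3 genes were all higher in mean FPKM in sgd. ERF1A (AT4G17500) measured 1.51, 2.77 and 3.60 FPKM in libraries 1 to 3 of wild type, against 8.59, 19.5 and 19.8 FPKM in those of sgd. The groups did not overlap, and the means of 2.63 ± 1.05 and 16.0 ± 6.40 FPKM (SD, n = 3) are 6.08-fold apart. ERF2 (AT5G47220), its close relative, measured 0.79, 2.38 and 2.23 FPKM in the wild-type libraries, against 4.43, 7.22 and 9.56 FPKM in those of sgd. Its groups did not overlap either, and its means of 1.80 ± 0.878 and 7.07 ± 2.57 FPKM (SD, n = 3) are 3.93-fold apart. Library 1 was the lowest of its genotype for both genes. ERF13 (AT2G44840), a gene whose overexpression makes seedlings hypersensitive to abscisic acid, measured 4.65, 6.02 and 16.7 FPKM in the wild-type libraries, against 10.4, 79.0 and 71.0 FPKM in those of sgd. Wild-type library 3 exceeded sgd library 1, so the groups overlapped, although sgd was higher within each pair of libraries with the same number, by 2.24-fold, 13.1-fold and 4.25-fold for numbers 1, 2 and 3.

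Among the 7 genes past the filter, subgroup IXb held both the largest and the smallest differences. ERF104 (AT5G61600), whose protein is released from MPK6 on perception of bacterial flagellin, measured 2.84, 1.62 and 5.04 FPKM in libraries 1 to 3 of wild type, against 106, 92.6 and 102 FPKM in those of sgd. It went from 3.17 ± 1.73 to 100.2 ± 6.77 FPKM (SD, n = 3), a log2 difference of 4.68, and from the 16.5th to the 93.3rd percentile of the features tested. The sgd values rest on an estimated 3058, 1368 and 1389 fragments, lie close together and are far from all wild-type values. ERF105 (AT5G51190), known for its induction by cold and its part in freezing tolerance, measured 0.55, 0 and 7.73 FPKM in the wild-type libraries, against 25.5, 70.3 and 64.0 FPKM in those of sgd. All sgd values lay above wild-type library 3, which was itself far above the other wild-type libraries. The means are 19.3-fold apart. Without that library the wild-type mean is 0.275 FPKM, from an estimated 11 and 0 fragments in libraries 1 and 2, so no fold is given. The log2 difference is then 5.32 in place of 4.38, and a pseudocount of 0.1 in place of 1 gave 5.93 with all libraries.

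ERF6 (AT4G17490), a regulator that slows leaf growth under osmotic stress, measured 0.77, 0.94 and 2.44 FPKM in the wild-type libraries, against 3.25, 20.5 and 22.4 FPKM in those of sgd. The groups did not overlap, but sgd library 1 was close to wild-type library 3, and the means of 1.38 ± 0.919 and 15.4 ± 10.5 FPKM (SD, n = 3) are 11.1-fold apart. ERF5 (AT5G47230), which acts with ERF6 in defence and growth control, measured 2.61, 2.35 and 4.64 FPKM in the wild-type libraries, against 1.31, 9.67 and 8.32 FPKM in those of sgd. It was the only gene of the 7 whose sgd library 1 was below its wild-type counterpart (0.502-fold), against 4.12-fold and 1.79-fold for numbers 2 and 3. The groups overlapped at both ends, with sgd library 1 the lowest of all 6 and wild-type library 3 above the other two.

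Subgroup IXc, which joins the ethylene and jasmonate pathways, was almost undetected. ERF1 (AT3G23240), a direct target of EIN3, measured 0, 0.08 and 0.10 FPKM in the wild-type libraries, against 0.42, 0.66 and 0.12 FPKM in those of sgd. These values correspond to an estimated 0, 2 and 3 fragments in wild type and 8, 6 and 1 in sgd, so no fold is given. ORA59 (AT1G06160), the main activator of defensin genes under combined ethylene and jasmonate, was listed at 0 in all 6 libraries. Of the other 8 genes of group IX most were at or near 0 as well: AT4G18450, ESE1, ERF14 and ERF98 were listed at 0 throughout, AT5G43410 only in wild-type library 1 at 0.19 FPKM, and ERF15 at 0 to 0.44 FPKM.

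The order of the genes by level changed between genotypes. In wild type ERF13 was the highest at 9.12 ± 6.59 FPKM (SD, n = 3). Its lowest value, 4.65 FPKM, was just above the highest of ERF5, 4.64 FPKM, but its range overlapped those of ERF104 and ERF105. ERF5, ERF104, ERF105, ERF1A, ERF2 and ERF6 followed with means from 3.20 to 1.38 FPKM, each overlapping the next. In sgd ERF104 was the highest, apart from ERF13 and ERF105, whose ranges overlapped around means of 53.4 ± 37.5 and 53.2 ± 24.3 FPKM (SD, n = 3). ERF1A, ERF6, ERF2 and ERF5 came next in sgd, from 16.0 to 6.43 FPKM, again each overlapping the next. As a share of the summed FPKM of the 9 genes, ERF104 held 10.02% to 20.7% in the wild-type libraries and 30.9% to 66.2% in the sgd libraries. ERF5 held 10.9% to 19.0% in wild type and 0.821% to 3.23% in sgd.

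**Figure D2:**
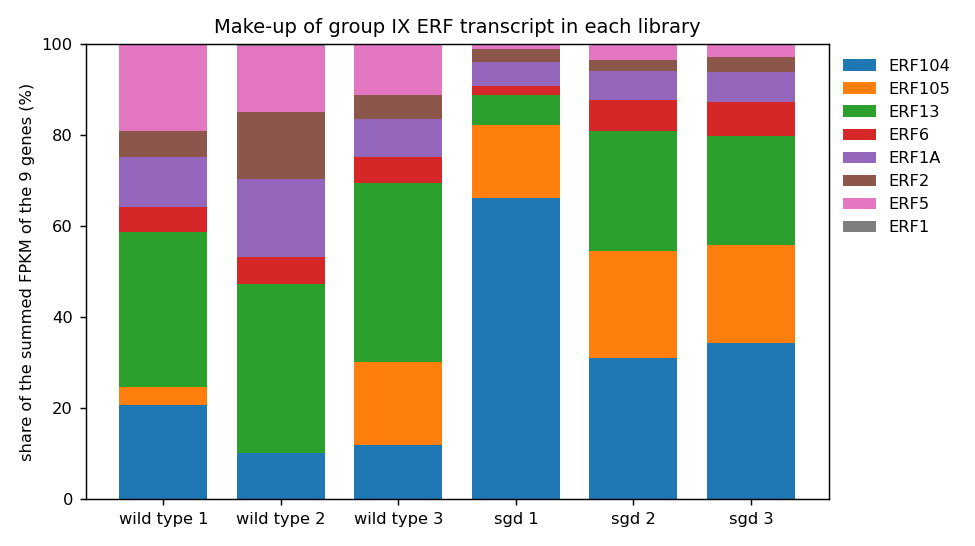
Share of the summed FPKM of the 9 genes held by each gene in each library, as stacked bars from 0 to 100%. ERF104 takes 66.2% in sgd library 1 and 30.9% and 34.4% in sgd libraries 2 and 3, ERF13 takes 33.9% to 39.3% in the wild-type libraries, and ORA59, at 0, is not drawn.

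Within the sgd genotype ERF104 parted from the other genes. In sgd library 1 it stood at 1.09 times its mean of sgd libraries 2 and 3, while the other 6 detected genes were lower there: ERF13 at 0.139, ERF5 at 0.146, ERF6 at 0.152, ERF105 at 0.379, ERF1A at 0.437 and ERF2 at 0.528 times. Of all 17588 tested features above 0 in every library, 81.4% had their lowest sgd value in library 1, with a median ratio of 0.662, so a lower value in that library is the rule for features in general. DEWAX (AT5G61590), a repressor of wax synthesis and the neighbour of ERF104, was instead highest in that library, at 2.45 times its mean of the other two. In wild type 6 of the 7 genes were highest in library 3, ERF2 being the exception, and library 3 held the highest value for 60.8% of features.

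Across the 6 libraries the 7 detected genes correlated with each other at Pearson r of 0.386 (ERF5 and ERF104) to 0.981 (ERF6 and ERF13) on the log2(FPKM + 1) scale, over 21 pairs. ERF1A and ERF2, which share the promoter run, correlated at 0.979. These correlations describe 6 libraries that share genotype, depth and the difference of library 1, and 12.9% of 6474 named features had an r of at least 0.9 with the mean profile of the 7 genes. The 8 named features most like that profile, outside the gene lists used here, were ORA47 (0.999), SRC2, FBS1, EXO70B1, UCP5, ATR2, NHL3 and TET8 (0.996), each over 6 libraries. ORA47 (AT1G74930), another AP2/ERF gene, measured 14.7, 15.5 and 33.0 FPKM in the wild-type libraries, against 46.8, 183 and 191 FPKM in those of sgd, with library 3 high in wild type and library 1 low in sgd.

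Rapid touch and wound genes were compared over the same libraries. Of 9 tested genes of this list, all were lowest in sgd library 1 among the sgd libraries, at 0.185 to 0.731 times the other two, and 7 were highest in wild-type library 3 among the wild-type libraries. Over all features 81.4% and 60.8% had these positions. Between genotypes 7 of the 9 rose and none fell, the other 2 not passing, where 13.3% of all features rose and 4.47% fell. CML39, the listed gene below the filter, went the other way. It was at 0.37, 1.70 and 2.76 FPKM in libraries 1 to 3 of wild type, against 0.19, 0 and 0.90 FPKM in those of sgd. The list median of 2.80 compares with 0.13 for all features. CML38 (AT1G76650), a calmodulin-like gene, rose from 1.95 ± 0.960 to 53.9 ± 9.22 FPKM (SD, n = 3, with an adjusted p of 2.45e-05 in limma). TCH4 (AT5G57560), a xyloglucan-modifying enzyme induced by touch, RRTF1 (AT4G34410), an AP2/ERF gene of group X, and TCH3 (AT2G41100), a calmodulin-like gene, rose by 3.12, 4.21 and 2.89 on the log2 scale. The summed FPKM of the 10 listed genes was 249, 208 and 470 in libraries 1 to 3 of wild type, against 763, 1945 and 2014 in those of sgd. The part of a touch or wound response in the levels of the group IX genes was not tested.

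**Figure D3:**
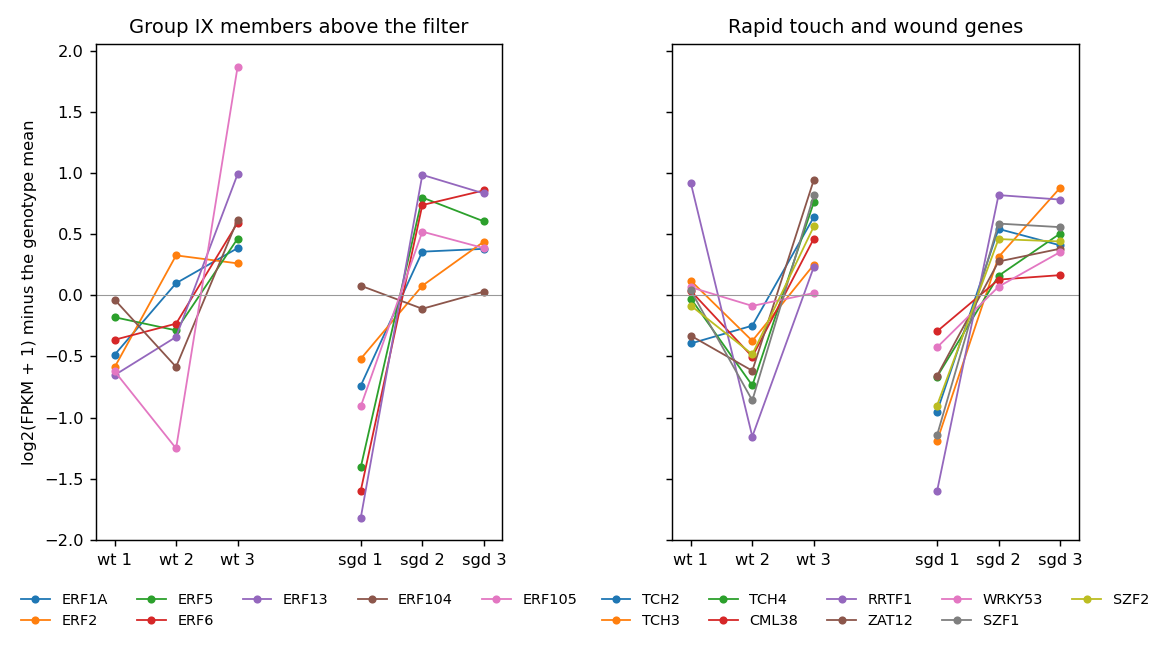
Deviation of log2(FPKM + 1) from the genotype mean in each library, for the 7 group IX genes above the filter (left) and the 9 tested touch and wound genes (right). Lines only join the values of 1 gene, and sgd library 1 is low for all of them except ERF104.

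Other genes of the AP2/ERF family were tested as lists with the fit over all features. In that fit 13.3% of all features were called higher and 4.47% lower. Of the other 8 group IX genes only 2 were measured well enough to test. DEWAX rose from 11.0, 15.3 and 12.7 FPKM in libraries 1 to 3 of wild type to 129, 25.0 and 80.5 FPKM in those of sgd. Its log2 rise of 2.23 (SE 0.50) passed in limma (adjusted p = 0.0120) and was lost without wild-type library 1 (adjusted p = 0.0717). AT5G07580 stood at 15.5 ± 5.51 and 14.4 ± 6.04 FPKM (SD, n = 3, with an adjusted p of 0.882 in limma). Group VIII contains repressors, several of which carry the EAR repression motif, and 4 of 8 rose, none fell and 4 did not pass (list median 1.04). ERF11 (AT1G28370) rose from 0.213 ± 0.119 to 11.6 ± 6.36 FPKM (SD, n = 3, with an adjusted p of 0.000731 in limma), and ERF4 (AT3G15210), ERF12 (AT1G28360) and ERF8 (AT1G53170) rose by 2.21, 1.21 and 1.198. Without wild-type library 1 only 2 of the group VIII genes were called, ERF4 being lost (adjusted p = 0.0650), and without sgd library 1 there were 7. ERF8 was lost on removal of any 1 library other than sgd library 1 (adjusted p up to 0.119). In group VII, whose proteins are stabilised by low oxygen, 1 of 5 rose, HRE2 (AT2G47520), which went from 0.0467 ± 0.0451 to 2.003 ± 1.29 FPKM (SD, n = 3, with an adjusted p of 0.0274 in limma). HRE2 passed the filter only through its sgd values. The HRE2 call was lost without any 1 of the wild-type libraries (adjusted p up to 0.0845). Without sgd library 2 or 3 no group VII gene was called, but HRE2 was then below the filter and not tested. With the replicate block 3 rose (26.5% of all features). None rose with median-ratio scaling (19.1% of all features), where HRE2 was again not tested.

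Transcripts of ethylene synthesis moved at single genes. Of 14 genes of ACC synthases and ACC oxidases, the last 2 steps of synthesis, 4 passed the filter, of which 2 rose, none fell and 2 did not pass. ACS6 (AT4G11280), an ACC synthase whose protein MPK3 and MPK6 stabilise, measured 14.5, 5.29 and 18.9 FPKM in libraries 1 to 3 of wild type, against 75.6, 167 and 173 FPKM in those of sgd. It rose by 3.39 on the log2 scale (SE 0.47, with an adjusted p of 0.000939 in limma). ACO4 (AT1G05010), an ACC oxidase, went from 2.05 ± 0.562 to 9.94 ± 8.51 FPKM (SD, n = 3, with an adjusted p of 0.0391 in limma). This last call was lost in 9 of 15 alternatives, among them the replicate block (adjusted p = 0.0687) and the removal of wild-type library 1, 2 or 3 (adjusted p = 0.151, 0.0635 and 0.0505). With the block, 1 gene of the list was called. Among the 10 synthesis genes below the filter, ACS1, ACO1 and ACO5 lay below all wild-type values in sgd and ACS2, ACS4 and ACS7 above them, all 6 named after their values were seen. ACS1, an ACC synthase, was listed at 1.39 to 1.43 FPKM in wild type and 0.08 to 0.25 FPKM in sgd, and ACO5, an ACC oxidase, at 0.74 to 1.92 FPKM and 0.07 to 0.61 FPKM.

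Receptors and signalling components of the ethylene pathway mostly did not pass the test. Of 13 tested genes 1 rose, none fell and 12 did not pass, with a list median of 0.27. In the fit with the replicate block 3 rose, where 26.5% of all features were called higher (13.3% without the block). ERS2 (AT1G04310), an ethylene receptor, rose from 8.68 ± 1.26 to 23.4 ± 1.47 FPKM (SD, n = 3, with an adjusted p of 0.00364 in limma). EIN3 (AT3G20770), the central transcription factor, stood at 63.6 ± 11.8 and 102 ± 17.8 FPKM (SD, n = 3, with an adjusted p of 0.154 in limma), without overlap between groups. It passed with the block (adjusted p = 0.00764), also when joined to median-ratio scaling (adjusted p = 0.0127). EIN3 passed as well with each of the 3 scalings (adjusted p up to 0.00825) and without both replicate 1 libraries (adjusted p = 0.00257). It did not pass with any 1 library left out (adjusted p up to 0.436). EIL1 (AT2G27050), its closest relative, EIN2 (AT5G03280) and CTR1 (AT5G03730) differed by -0.37, 0.19 and 0.10 on the log2 scale with overlapping groups and limma adjusted p of 0.528, 0.716 and 0.869. The sign of CTR1 turned with median-ratio scaling (-0.052), with quantile normalization (-0.083) and without wild-type library 1 (-0.094). Dropping library 1 of either genotype gave a count of 2.

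In the MAP kinase cascade that acts on group IX proteins 3 of 8 genes rose, none fell and 5 did not pass, with a list median of 0.50. The replicate block gave 5 risen, where 26.5% of all features were called higher (13.3% without the block). MPK3 (AT3G45640) measured 9.34, 8.74 and 13.5 FPKM in libraries 1 to 3 of wild type, against 34.8, 103 and 119 FPKM in those of sgd, and rose by 2.75 on the log2 scale (SE 0.43, with an adjusted p of 0.00186 in limma). MKK9 (AT1G73500), a kinase that activates MPK3 and MPK6, rose from 7.34 ± 2.81 to 70.2 ± 36.1 FPKM (SD, n = 3, with an adjusted p of 0.00131 in limma). AP2C1 (AT2G30020), a phosphatase that inactivates stress MAP kinases, rose by 2.08 on the log2 scale (SE 0.38). MPK6 (AT2G43790) stood at 37.8 ± 4.34 and 49.5 ± 3.47 FPKM (SD, n = 3, with an adjusted p of 0.360 in limma), a difference that passed with the block (adjusted p = 0.0359) but not with the block and median-ratio scaling joined (adjusted p = 0.142).

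Among genes placed beside ERF5 and ERF6 in the stress response of growing leaves, 9 of 11 tested rose, none fell and 2 did not pass, with a list median of 1.79. WRKY33 (AT2G38470), a defence regulator, rose from 0.85 ± 0.308 to 15.1 ± 3.45 FPKM (SD, n = 3, with an adjusted p of 9.41e-05 in limma), and ZAT10 (AT1G27730), a zinc finger repressor, from 2.503 ± 1.41 to 42.5 ± 8.42 FPKM (SD, n = 3, with an adjusted p of 0.000137 in limma). WRKY40 (AT1G80840) rose by 4.18 on the log2 scale (SE 0.51), and ERF11, which also belongs to group VIII, by 3.21. The list includes ERF8, ERF9 and ERF11 of the group VIII list and ERF98 of the group IX list. ERF11, RAP2.6L, ZAT6, WRKY28, WRKY33 and WRKY48 averaged below 1 FPKM in wild type, so a fall could not be called for them. Targets of ERF1 and ORA59 in defence were low or at 0. Of 7 genes the defensin genes PDF1.2, PDF1.2b, PDF1.2c and PDF1.3 were listed at 0 in all libraries. HCHIB (AT3G12500), below the filter, was listed at 0.02 to 0.05 FPKM in wild type and 0.91 to 1.56 FPKM in sgd. It was named after its values were seen. Only PR4 (AT3G04720), a hevein-like gene, was tested, and it passed the filter only through its sgd values. PR4 was listed at 0.0567 ± 0.0252 FPKM in wild type and 2.29 ± 1.43 FPKM in sgd (SD, n = 3, with an adjusted p of 0.0167 in limma), a call lost without any 1 of the wild-type libraries (adjusted p up to 0.0576).

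**Figure D4:**
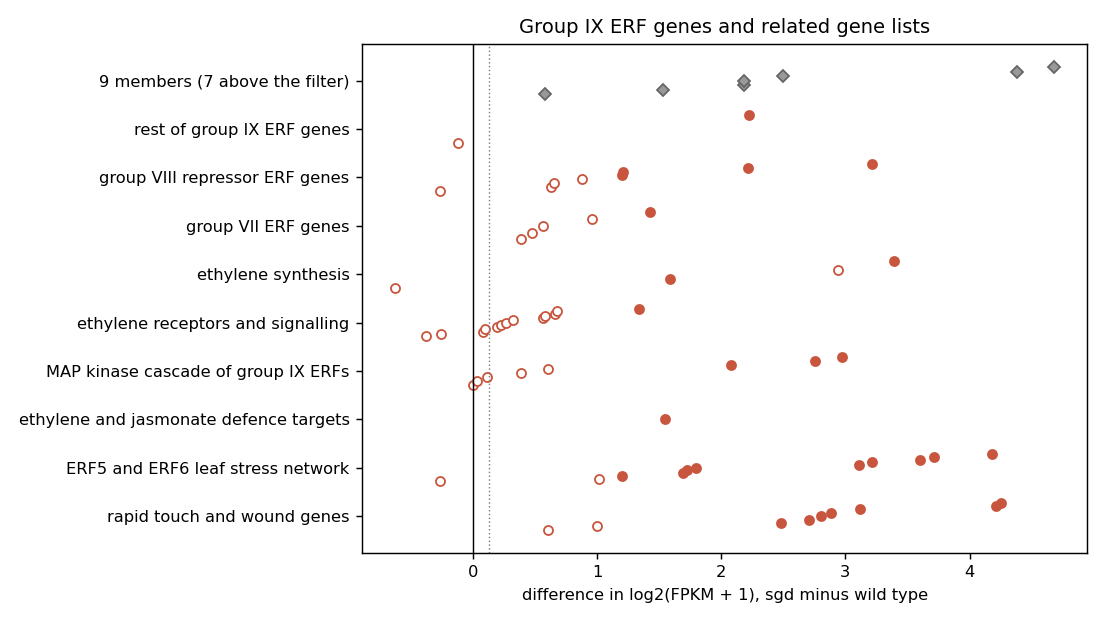
Difference in log2(FPKM + 1) between sgd and wild type for each tested gene of the lists, as 1 point per gene. Filled circles passed the limma threshold, open circles did not, grey diamonds are the 7 group IX genes, given without a test, and the dotted line marks the median of all features (0.13).

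Markers of other cell types differed between the genotypes beside all of these groups. The summed FPKM of 8 pollen and sperm genes was 10.5 to 24.6 in wild type and 71.7 to 166 in sgd, with 4 of 5 tested risen, and that of 6 leaf photosynthesis genes was 504 to 1554 and 1908 to 3347, with 3 of 5 tested risen. None of the 8 pollen genes was at 0 in every library, and in libraries 1 to 3 of sgd their sum was 166, 158 and 71.7 FPKM. Of these genes 5 lay above all wild-type values in sgd and 1, the sperm gene HAP2, below them. HAP2 was below the filter, at 0.83 to 1.36 FPKM in wild type and 0.16 to 0.48 FPKM in sgd. The 4 tapetum genes summed to at most 0.66 FPKM, with MS1 and ATA7 at 0 in all libraries. Of 7 tested ovule markers 2 fell, BEL1 and ANT, none rose and 5 did not pass. With the replicate block, and likewise with median-ratio scaling, 4 fell and 1 rose. Of all features 4.47% were called lower in the reported fit, and 14.3% lower and 26.5% higher with the block. SHP1, an ovule and carpel identity gene, stood at 148 ± 31.6 FPKM in wild type and 234 ± 49.8 FPKM in sgd (SD, n = 3), above all wild-type values, with an adjusted p of 0.234 in limma and of 0.00874 with the block. STK went the other way, from 610 ± 233 FPKM in wild type to 236 ± 107 FPKM in sgd (SD, n = 3), below all wild-type values. Its adjusted p was 0.0818 in limma and 0.00456 with the block. BEL1, ANT, SHP1, STK and HAP2 were named after their values were seen. The part of other cell types in the levels of the group IX genes was not tested.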

How the data were processed

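The 6 files hold FPKM with 2 decimals, made by the authors from ovule libraries, per the file headers. The submitters' processing notes name TAIR10 as the build, and RSEM, TopHat2 2.1.1, cutadapt 1.15, CASAVA and DESeq2 as tools without their roles. Gene names, exons and promoter letters came from RefSeq TAIR10.1, whose name differs from TAIR10. Coordinates are those of TAIR10.1, and the deposited files carry none.

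Features averaging 1 FPKM or more (18100) entered a fit in limma 3.58.1 under R 4.3.3 (lmFit, eBayes with a trend) on log2(FPKM + 1), sgd minus wild type, two-sided, with Benjamini-Hochberg adjustment over all of them and a threshold of 0.05. Differences on this scale understate the change of low genes. A gene averaging below 1 FPKM in wild type could pass the filter only by being higher in sgd, so a fall could not be called for it. Among the called genes named here this holds for PR4, HRE2, ERF11 and WRKY33. The fit and the depth estimate were tested on simulated data. For depth, 1 fragment adds a fixed FPKM to a gene of known length, and 90.9% to 96.8% of 889 to 1590 low values per library were whole fragment numbers to within 0.2, at a step fitted to these same values. Intervals from such depths would cover counting error only and are not given.

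The members and lists were chosen with earlier results of these data known. Named were the 9 members, the 8 other group IX genes, up to 4 called genes per list and direction by p, the central pathway genes, and the 8 named features with a mean of at least 5 FPKM most correlated with the members. Deviations from the genotype means correlated at 0.524, 0.237 and 0.377 between libraries numbered 1, 2 and 3, so the numbers, taken from the labels, may pair the samples. The reported fit has no block. Alternatives were a pseudocount of 0.1, no filter, a stricter filter of 5 FPKM, 3 scalings, the block and leaving out each library. Once the data had been seen, 2 more were added, one that removes both replicate 1 libraries and one that joins the block to median-ratio scaling.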

Additional observations from a re-analysis of the deposited data

How the results depend on the processing

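The 7 detected group IX genes were higher in sgd under each of the 15 alternatives that tested them, with a median log2 difference between 1.94 and 3.09. The 3216 features changed in all became 6755 after rescaling to equal totals, 6856 with median-ratio scaling, 6874 with quantile normalization, 7376 with the replicate block, 7188 with the block and median-ratio scaling joined, 8953 without both replicate 1 libraries, and 1921 to 4370 with 1 library left out. The median difference of all features moved from 0.13 to -0.02 with median-ratio scaling.

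Of the lists, the other group IX genes gave 0 to 1 calls (reported 1) with 1 library left out, ethylene synthesis 1 to 3 (reported 2), receptors and signalling 1 to 2 (reported 1), defence targets 0 to 1 (reported 1), group VIII 2 to 7 (reported 4) and group VII 0 to 1 (reported 1). Ethylene synthesis gave 1 call and receptors 3 with each of the 3 scalings, with the replicate block and with scaling and block together, and receptors gave 4 without both replicate 1 libraries. The MAP kinase list gave 5 and 5 (reported 3) with the block and without both replicate 1 libraries, where group VIII gave 7. Group VII gave 0 at a mean of at least 5 FPKM and with median-ratio scaling with or without the block, 2 with equal totals and 3 with the block or without both replicate 1 libraries. Defence targets gave 2 with no filter and held no tested gene in 4 alternatives. The log2 difference of CTR1 (reported 0.10) turned to -0.052 with median-ratio scaling with or without the block and to -0.083 with quantile normalization, and ran from -0.094 (without wild-type library 1) to 0.27 with 1 library left out. That of AT5G07580 (reported -0.12) ran from -0.42 to 0.24 with 1 library left out, being above 0 without wild-type library 3 (0.096) or sgd library 1 (0.24). Ovule markers gave 5 calls (reported 2) with the block. Of the other lists, the block changed the counts of ethylene synthesis, receptors, MAP kinase and group VII by over 1.5 times, as given above. The cause of these shifts was not tested. Depth limits ERF1, at an estimated 8 fragments or fewer per library, and a gene listed at 0 need not be absent.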
